A study of Danio rerio with 28 samples.

Results

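The genes described here are 10 clock genes of the zebrafish: the activators bmal1a, bmal1b, clocka and clockb, the period genes per1a, per1b, per2 and per3, the cryptochrome gene cry3b, and cry5, of the cryptochrome and photolyase family. They were chosen by name, with earlier results of these data known. Each matched 1 row in both deposited count tables, which held 16134 rows in the first experiment and 15419 in the second. All 10 passed the filter on low counts in both. The study, by its title, concerns interleukin-22 (il22), the microbiota and gut motility in larvae, and measured RNA in dissected guts at 7 days post-fertilization, with 10 to 15 guts pooled in each library. The first experiment held il22-/- larvae (il22ko) and wild type larvae (WT), with rearing not given in the labels. The second held 5 groups: il22-/- larvae that were co-housed (il22koCoH, the partners not named in the labels), il22-/- larvae reared germ-free (il22koGF, called axenic in the labels), il22-/- larvae reared conventionally (il22koCV), wild type larvae reared germ-free (WTGF) and wild type larvae reared conventionally (WTCV). Each of the 7 groups had 4 libraries, 28 in all. Libraries are separate pools, so p-values measure the spread between pools and not between single larvae. Whether the 4 pools of a group came from separate vessels or clutches is not known here. If they did not, a difference between vessels or clutches could not be told apart from one of rearing or genotype. The labels give neither the hour of dissection, nor the light schedule, nor the kind of il22 mutation. A difference between groups in hour or light therefore cannot be told apart from one of rearing or genotype.

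The clock of vertebrate cells is a loop of transcription and repression. CLOCK and BMAL proteins pair and switch on genes that carry E-boxes, among them the period and cryptochrome genes, whose products return to the nucleus and hold the pair back, so that the RNA of activators and repressors peaks at different hours of the day. REV-ERB and ROR receptors add a second loop by repressing and activating the BMAL genes. Zebrafish kept many of these genes as duplicates, and their peripheral organs, the gut included, carry clocks of their own that respond to light directly; per2 is a known light-induced gene there, and cry5 encodes a protein of the cryptochrome and photolyase family known for repair of ultraviolet damage.

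In units of 1000000 counts, libraries held 30.2 to 37.95 in the first experiment and 22.3 to 31.0 in the second. In the first experiment il22 itself had 5, 14, 58 and 35 counts in il22ko, against 192, 164, 218 and 464 in WT. In the second it was near the limit of detection throughout, with 1, 3, 3 and 25 counts in il22koCoH, 0, 1, 1 and 1 in il22koGF, 5, 1, 9 and 4 in il22koCV, 0, 5, 2 and 0 in WTGF and 4, 1, 18 and 17 in WTCV, so there it did not check the labels, and the library labelled il22koCoH 4 had more than any wild type library. The gene wee1, named here after its values were seen, had 14 to 80 counts in every il22-/- library of either experiment, 26 of them in the library labelled il22koCoH 4, and at most 2 in every wild type library. Of 7 markers of the intestinal epithelium, cdx1b, vil1, fabp6, slc15a1b and apoa4b.1 stood between 92.5 and 6993 CPM (counts per 1000000 counts of the scaled library) in all 28 libraries, while fabp2 reached at most 0.717 CPM and anxa2b at most 3 counts. Of 8 markers of eye and brain, gnat1 had no count in any library and opn1mw1, crx and rho had at most 3, gnat2 and gfap at most 18, while the neuronal genes elavl3 and snap25a were counted in every library, at 1.62 to 5.50 and 3.47 to 7.35 CPM. In bulk RNA of a whole gut, fewer cells of a type and less RNA per cell cannot be told apart.

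Set per length of transcript, as TPM (transcripts per 1000000, deposited by the authors), cry3b was the most abundant of the 10 in the second experiment, with 53.7 to 120.5 TPM over the 20 libraries and a median of 87.95. The medians of per2, per3, clockb, bmal1a, cry5 and clocka followed at 27.0, 18.4, 18.2, 17.3, 15.4 and 10.6 TPM. The lowest medians were those of bmal1b at 7.75, per1b at 4.54 and per1a at 0.935 TPM. Of each duplicated pair, per1b exceeded per1a in every library of this experiment, 2.44 to 7.21 times per length, clockb exceeded clocka 1.18 to 2.68 times, and bmal1b reached 0.282 to 0.562 of bmal1a. The period genes per1a and per1b varied most, with 11.8-fold and 10.3-fold between the lowest and the highest library in CPM, against 4.08-fold for cry5 and at most 2.61-fold for the other 7 genes.

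In germ-free guts of both genotypes bmal1a and clocka were higher, and per1a, per1b and cry5 lower, than in conventional guts. The genes bmal1b and clockb were called higher in il22-/- guts and not called in wild type guts. For neither was the difference between the genotypes called (adjusted p = 0.0568 and 0.282 in the interaction, described below). In il22-/- guts, 8 of the 10 genes differed between il22koGF and il22koCV at an adjusted p under 0.05, where 27.2% of the 11254 genes tested were called. Higher were 5 (bmal1a, bmal1b, clocka, clockb and cry3b, beside 14.0% of all genes) and lower were 3 (per1a, per1b and cry5, beside 13.3%). The groups did not overlap in these 8, as in 33.5% of all genes tested. In wild type guts, 6 of the 10 differed between WTGF and WTCV, beside 25.2% of all genes. Of these, 2 were higher (bmal1a and clocka, beside 12.1%) and 4 lower (per1a, per1b, per2 and cry5, beside 13.2%). The groups did not overlap in 6, beside 17.1%: the called genes other than per1a, and clockb, which was not called. Between the genotypes in conventional guts, 6 differed between il22koCV and WTCV, beside 36.2% of all genes: per3 was higher (17.0% of all genes were) and bmal1a, bmal1b, per2, cry3b and cry5 were lower (19.1%). The groups did not overlap in 4 of the 10, beside 31.3% of all genes. In germ-free guts 1 differed between il22koGF and WTGF, beside 26.8%: cry5 was higher (13.5%; 13.3% were lower), and it alone did not overlap (29.8%). In the first experiment 0 of the 10 were called between il22ko and WT (edgeR, 0 at an unadjusted p under 0.05, and 0 in DESeq2), beside 33.1% of all genes, 16.1% higher and 17.0% lower. The comparisons of the second experiment share groups, WTCV and il22koCV most often, so their calls are not independent of each other.

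**Figure D1:**
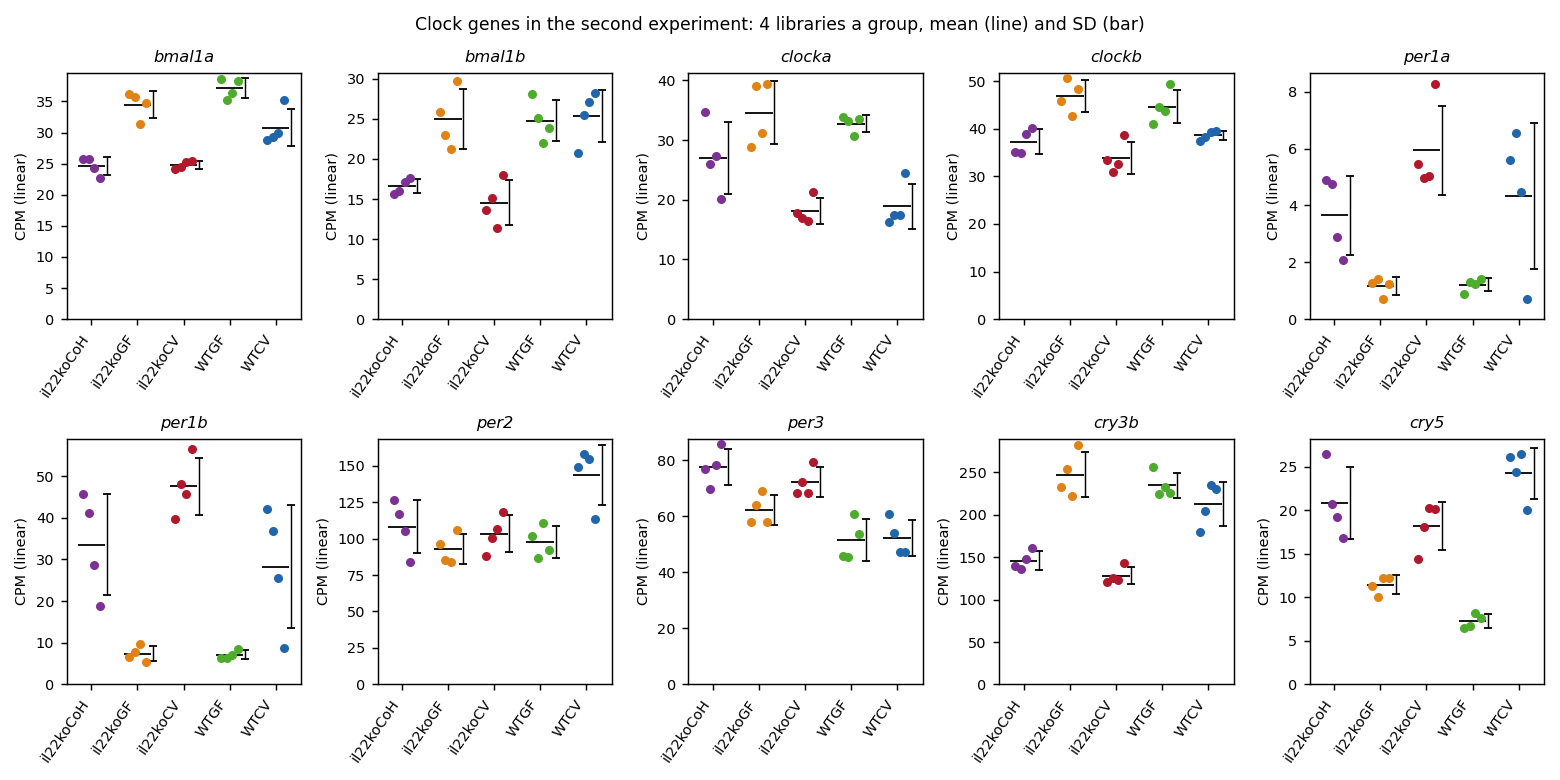
Each point is 1 library of the second experiment, in CPM on a linear axis that starts at 0, for the 10 clock genes in il22koCoH, il22koGF, il22koCV, WTGF and WTCV (4 libraries each), with the group mean as a line and the SD as a bar. In per1b the 8 germ-free libraries lie between 5.48 and 9.70 CPM beside 1 WTCV library at 8.67, and in cry3b the 8 libraries of il22koCoH and il22koCV reach at most 161 while the lowest of the other 12 lies at 179.8.

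Among the activators, bmal1a and bmal1b encode the paired partners of CLOCK. Expression of bmal1a was 25.8, 25.8, 24.3 and 22.7 CPM in il22koCoH, 36.2, 35.6, 31.4 and 34.7 in il22koGF and 24.2, 24.4, 25.2 and 25.5 in il22koCV. In the wild type it was 38.6, 35.2, 36.4 and 38.3 in WTGF and 28.8, 29.2, 29.97 and 35.1 in WTCV. Every conventional or co-housed il22-/- library was below every WTCV library, and every germ-free library was above every conventional library of its own genotype. The log2 fold change was 0.47 ± 0.07 (SE, adjusted p = 0.000128) for il22koGF over il22koCV, 0.27 ± 0.07 (SE, adjusted p = 0.00905) for WTGF over WTCV and -0.31 ± 0.07 (SE, adjusted p = 0.00192) for il22koCV over WTCV. The wild type call was lost in 3 of 18 alternatives (adjusted p 0.000202 to 0.113): with WTGF and WTCV fitted without the other groups, and with limma on both TPM scales.

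Expression of bmal1b was 15.7, 16.03, 17.1 and 17.6 CPM in il22koCoH, 25.8, 22.96, 21.3 and 29.8 in il22koGF and 13.6, 15.2, 11.4 and 18.03 in il22koCV. Wild type guts had 28.1, 25.1, 22.02 and 23.9 in WTGF and 20.8, 25.5, 27.1 and 28.2 in WTCV. The 8 libraries of il22koCoH and il22koCV were the lowest, all below the other 12, which overlapped one another. Relative to WTCV, bmal1b fell to 14.6 ± 2.78 CPM in il22koCV, against 25.4 ± 3.27 in WTCV (mean ± SD, n = 4 each), a log2 fold change of -0.80 ± 0.13 (SE, adjusted p = 9.82e-05). It was 1.71-fold higher in il22koGF than in il22koCV (log2 fold change 0.78 ± 0.13 SE, adjusted p = 0.000371), while WTGF and WTCV differed by -0.03 ± 0.13 (SE, adjusted p = 0.874).

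The 2 clock paralogues encode CLOCK proteins, the partners of BMAL. Expression of clocka was 34.7, 25.9, 27.3 and 20.1 CPM in il22koCoH, 28.9, 38.98, 31.2 and 39.3 in il22koGF and 17.7, 16.9, 16.4 and 21.2 in il22koCV. It was 33.8, 33.2, 30.6 and 33.5 in WTGF and 16.2, 17.5, 17.4 and 24.4 in WTCV. All 8 germ-free libraries were above all 8 conventional ones, the 2 conventional groups overlapped, and the co-housed libraries ran from the conventional range to the germ-free one. It was 1.92-fold higher in il22koGF than in il22koCV (log2 fold change 0.94 ± 0.15 SE, adjusted p = 0.00028) and 1.74-fold higher in WTGF than in WTCV (0.80 ± 0.15 SE, adjusted p = 0.00145). The paralogue clockb moved less: 46.9 ± 3.40 CPM in il22koGF and 33.9 ± 3.37 in il22koCV, 44.7 ± 3.55 in WTGF and 38.6 ± 1.02 in WTCV (mean ± SD, n = 4 each). Its log2 fold change was 0.47 ± 0.08 (SE, adjusted p = 0.000348) for il22koGF over il22koCV. For WTGF over WTCV it was 0.21 ± 0.08 (SE, adjusted p = 0.0523), not called although the groups did not overlap, and called in 5 of 18 alternatives (adjusted p 0.0317 to 0.436).

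Of the period genes, which encode the repressors that travel with cryptochromes, the per1 pair differed most by rearing. Expression of per1b was 45.6, 41.2, 28.6 and 18.9 CPM in il22koCoH, 6.46, 7.89, 9.70 and 5.48 in il22koGF and 39.8, 48.1, 45.7 and 56.5 in il22koCV. It was 6.32, 6.35, 7.14 and 8.56 in WTGF and 41.997, 36.9, 25.6 and 8.67 in WTCV. The 8 germ-free libraries were low and close together, the il22koCV libraries were all high, and WTCV ran from near the germ-free level in WTCV 4 to the level of il22koCV. In order of library number, per1b fell through WTCV and through il22koCoH, rose through WTGF and did neither in il22koGF and il22koCV. The reason for this order was not tested. Relative to conventional rearing, per1b was 6.43-fold lower in il22koGF (log2 fold change -2.69 ± 0.38 SE, adjusted p = 0.000128) and 3.98-fold lower in WTGF (-1.99 ± 0.37 SE, adjusted p = 0.00162). Within conventional guts, il22koCV and WTCV differed by 0.75 ± 0.35 (SE, adjusted p = 0.103), not called. That difference was called in 3 of 18 alternatives, with adjusted p from 0.0346 to 0.213.

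The second copy, per1a, stood much lower. Its levels were 4.90, 4.74, 2.90 and 2.07 CPM in il22koCoH, 1.28, 1.42, 0.721 and 1.23 in il22koGF and 5.47, 4.96, 5.05 and 8.27 in il22koCV. In the wild type they were 0.878, 1.31, 1.22 and 1.43 in WTGF and 5.58, 6.56, 4.46 and 0.699 in WTCV. WTCV 4 was the lowest of the 20 libraries, with 20 counts, and the other 3 WTCV libraries were above every germ-free one. The log2 fold change was -2.34 ± 0.46 (SE, adjusted p = 0.00127) for il22koGF over il22koCV and -1.83 ± 0.46 (SE, adjusted p = 0.00834) for WTGF over WTCV. With WTGF and WTCV fitted without the other groups, the adjusted p for the wild type was 0.0630 (range over 18 alternatives 5.29e-06 to 0.0630).

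The light-induced per2 followed another order. Expression of per2 was 126, 117, 105 and 83.9 CPM in il22koCoH, 96.1, 85.3, 83.7 and 106 in il22koGF and 87.9, 100.5, 107 and 118 in il22koCV. It was 102, 86.5, 111 and 91.98 in WTGF and 149, 158, 155 and 113 in WTCV. Of WTCV, 3 libraries were above all others of the experiment, and WTCV 4 lay inside the range of the il22-/- groups. Relative to WTCV, per2 was lower in il22koCV (log2 fold change -0.48 ± 0.13 SE, adjusted p = 0.00769) and in WTGF (-0.56 ± 0.13 SE, adjusted p = 0.00553). Within il22-/- guts, il22koGF and il22koCV differed by -0.15 ± 0.13 (SE, adjusted p = 0.406), not called. That fold change and the one of WTGF over WTCV were not called different from each other (0.40 ± 0.18 SE, adjusted p = 0.318). Liver transcripts, from 11 marker rows, also differed between these wild type groups: their mean log2 CPM was 0.26 to 2.23 in WTGF and 2.01 to 3.31 in WTCV. With that liver score as a covariate, each of the 6 genes called between WTGF and WTCV was still called. Exocrine pancreas transcripts, from 14 markers, had a mean log2 CPM of 9.54 to 10.27 in WTGF and 8.86 to 9.74 in WTCV. Their part in these differences was not tested.

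The fourth member, per3, was called by genotype in conventional guts and in neither rearing comparison. Expression of per3 was 77.1, 69.8, 78.2 and 85.7 CPM in il22koCoH, 57.96, 64.2, 69.04 and 58.1 in il22koGF and 68.3, 72.4, 68.5 and 79.6 in il22koCV. It was 46.02, 45.4, 61.02 and 53.8 in WTGF and 60.8, 53.9, 47.2 and 47.2 in WTCV. Every il22koCV and il22koCoH library was above every wild type library, and il22koGF overlapped both wild type groups. Relative to WTCV it was 1.38-fold higher in il22koCV (log2 fold change 0.47 ± 0.10 SE, adjusted p = 0.00157). In germ-free guts the difference was 0.27 ± 0.10 (SE, adjusted p = 0.0559) for il22koGF over WTGF, not called, but called in 6 of 18 alternatives (adjusted p 0.0133 to 0.171). Between rearing conditions, per3 changed by -0.21 ± 0.10 (SE, adjusted p = 0.132) in il22-/- guts and by -0.02 ± 0.10 (SE, adjusted p = 0.911) in wild type guts, neither called. The change in il22-/- guts was called in 1 of 18 alternatives, with the compared groups fitted alone (adjusted p 0.0453 to 0.301), and that in wild type guts in 0 of 18.

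Among the 5 groups of the second experiment, the cryptochrome gene cry3b was lower in conventional and co-housed il22-/- guts than in any other. Expression of cry3b was 139, 136, 147 and 161 CPM in il22koCoH, 233, 254, 222 and 282 in il22koGF and 121, 126, 124 and 144 in il22koCV. It was 256, 225, 232 and 226 in WTGF and 179.8, 205, 235 and 231 in WTCV. The il22koCoH and il22koCV libraries were all below the other 12, as for bmal1b, and the wild type groups overlapped. Relative to WTCV, cry3b fell to 128 ± 10.4 CPM in il22koCV, against 213 ± 25.6 in WTCV (log2 fold change -0.73 ± 0.09 SE, adjusted p = 6.41e-06). It was 1.93-fold higher in il22koGF than in il22koCV (0.95 ± 0.09 SE, adjusted p = 4.61e-06), while WTGF and WTCV differed by 0.14 ± 0.09 (SE, adjusted p = 0.263), not called.

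The photolyase-family gene cry5 was lower in every germ-free library than in every conventional or co-housed one. Its levels were 26.5, 20.7, 19.2 and 16.8 CPM in il22koCoH, 11.3, 10.02, 12.3 and 12.3 in il22koGF and 14.4, 18.05, 20.2 and 20.2 in il22koCV. In the wild type they were 6.50, 6.68, 8.21 and 7.62 in WTGF and 26.2, 24.4, 26.5 and 20.04 in WTCV. The 4 WTGF libraries were the lowest and the 4 il22koGF libraries came next, with no overlap between them. Relative to conventional rearing, cry5 was 3.34-fold lower in WTGF (log2 fold change -1.74 ± 0.14 SE, adjusted p = 2.74e-07) and 1.59-fold lower in il22koGF (-0.67 ± 0.14 SE, adjusted p = 0.00172). In germ-free guts it was 1.58-fold higher in il22koGF than in WTGF (0.66 ± 0.14 SE, adjusted p = 0.00162). In conventional guts it was 1.33-fold lower in il22koCV than in WTCV (-0.41 ± 0.14 SE, adjusted p = 0.0224), with overlapping groups and the call lost in 5 of 18 alternatives (adjusted p 0.00406 to 0.0847). These were the fits without WTCV 1, without WTCV 3 and without il22koCV 1, and 2 checks of other tissues. The latter were the fit without the 3 libraries with the most muscle transcripts (adjusted p = 0.0699) and the one with the liver score as a covariate (adjusted p = 0.0571).

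**Figure D2:**
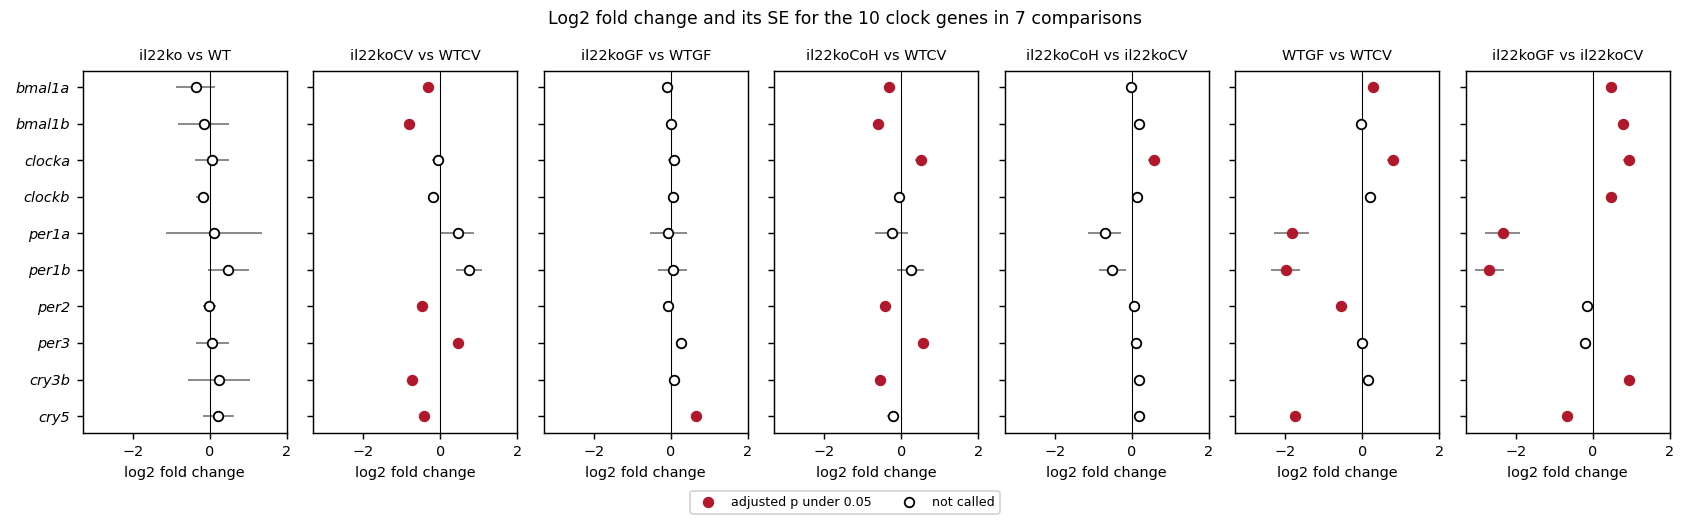
Log2 fold change (point) and SE (bar) of the 10 clock genes in 7 comparisons, each titled with the numerator first; filled red points have an adjusted p under 0.05 and open points do not. In the il22ko vs WT panel all 10 points are open with SEs of up to 1.25, and in the il22koGF vs il22koCV panel 8 points are filled, from -2.69 for per1b to 0.95 for cry3b.

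The difference between germ-free and conventional guts was then compared between the genotypes as an interaction. This is the log2 fold change of il22koGF over il22koCV minus that of WTGF over WTCV. Of the 10 genes, 2 were called, cry3b and cry5, both with a positive difference, beside 0.444% of all genes tested, 0.329% positive and 0.116% negative. For cry3b the fold change was 0.95 in il22-/- guts and 0.14 in wild type guts, a difference of 0.80 ± 0.13 (SE, adjusted p = 0.0132). This difference was called in all 26 alternatives run (adjusted p 4.62e-06 to 0.0403). For cry5 both fold changes were negative, -0.67 in il22-/- guts and -1.74 in wild type guts, a difference of 1.07 ± 0.20 (SE, adjusted p = 0.0184). The cry5 call was lost in 3 of 26 alternatives (adjusted p 0.000189 to 0.0897): without il22koCV 2, without the 3 libraries with the most muscle transcripts, and with the liver score as a covariate. For bmal1b the difference, 0.81 ± 0.18 (SE, adjusted p = 0.0568), was not called, though it was in 8 of 26 alternatives (adjusted p 0.00397 to 0.116). For clockb it was 0.26 ± 0.11 (SE, adjusted p = 0.282), called in 0 of 26 alternatives. For per2 it was 0.40 ± 0.18 (SE, adjusted p = 0.318), called in 1 of 26, the fit without WTCV 4 and il22koCoH 4. For the per1 pair, whose fold changes between rearing groups were the largest, the differences were -0.52 ± 0.64 (SE, adjusted p = 0.740) for per1a and -0.69 ± 0.51 (SE, adjusted p = 0.551) for per1b. Without WTCV 4, 3 members and 972 genes in all were called, against 2 and 50 with it.

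In co-housed il22-/- guts, 9 of the 10 genes were not called against conventional il22-/- guts. Between il22koCoH and il22koCV, 1 of the 10 was called, beside 2.59% of all genes, 1.5% higher and 1.09% lower: clocka, 1.49-fold higher in il22koCoH (log2 fold change 0.58 ± 0.15 SE, adjusted p = 0.0468). The clocka groups overlapped, and the call was lost in 12 of 18 alternatives (adjusted p 0.00693 to 0.139). In per1a all 4 il22koCoH libraries were below all 4 il22koCV libraries, but the difference of -0.70 ± 0.43 (SE, adjusted p = 0.421) was not called; groups did not overlap in 12.6% of all genes. Against WTCV, 6 of the 10 were called in il22koCoH, beside 33.2% of all genes, 16.1% higher and 17.1% lower, and the groups did not overlap in 4, beside 26.0%. The 6 called were clocka (0.51 ± 0.15 SE, adjusted p = 0.0134) and per3 (0.57 ± 0.10 SE, adjusted p = 0.000297), both higher, and bmal1a, bmal1b, per2 and cry3b, all lower, by -0.32, -0.61, -0.41 and -0.54 on the log2 scale. Of these, clocka and per2 overlapped between the groups. The per2 call was lost in 5 of 18 alternatives (adjusted p 0.00323 to 0.0770), one of them without the library labelled il22koCoH 4, and the clocka call in 3 (adjusted p 0.000167 to 0.0793). Liver transcripts did not overlap between these groups, with a mean log2 CPM of 0.09 to 1.55 in il22koCoH and 2.01 to 3.31 in WTCV; with the liver score as a covariate the per2 call was lost (-0.40 ± 0.16 SE, adjusted p = 0.0699) and the other 5 were still called. Exocrine pancreas transcripts, from 14 markers, had a mean log2 CPM of 9.93 to 10.85 in il22koCoH, 9.14 to 10.00 in il22koCV and 8.86 to 9.74 in WTCV; the part of the pancreas transcripts in these differences was not tested.

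**Figure D3:**
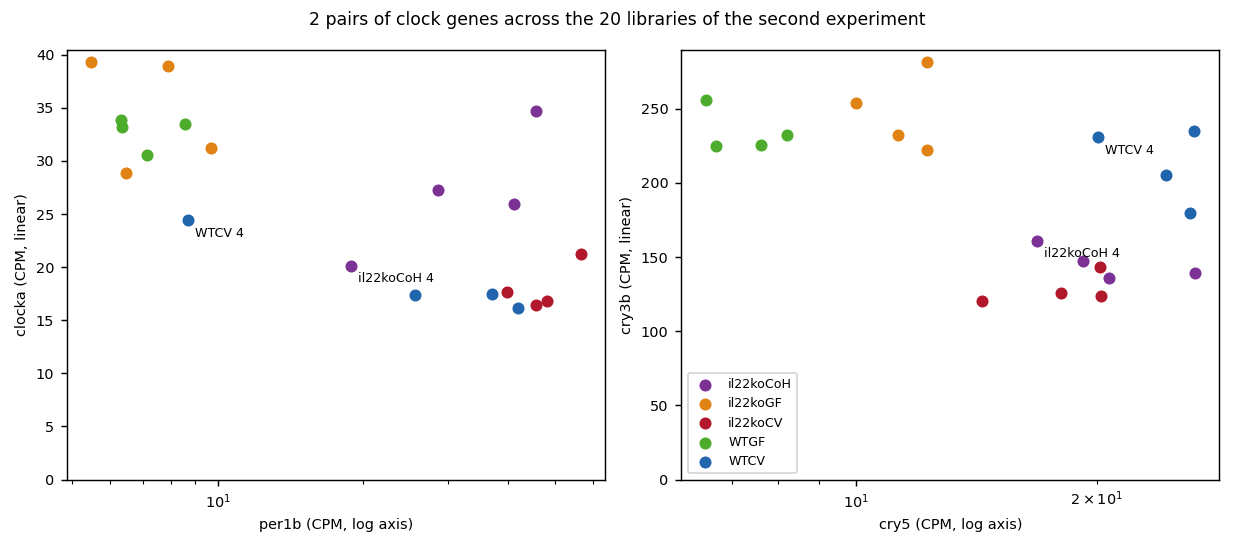
Each point is 1 of the 20 libraries of the second experiment, coloured by group, with per1b on the x axis and clocka on the y axis on the left, and cry5 and cry3b likewise on the right (CPM, x axes logarithmic, y axes linear from 0). The 8 germ-free libraries lie at low per1b and clocka of 28.9 to 39.3 CPM, and WTCV 4 shares their range of per1b with clocka at 24.4 CPM; on the right, cry5 separates the germ-free libraries and cry3b separates il22koCoH and il22koCV from the rest.

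In the first experiment the 10 genes varied widely within both groups, and none was called between them. Expression of cry3b was 29.8, 25.8, 167 and 193 CPM in il22ko 1 to 4 and 23.9, 105, 104 and 119.6 in WT 1 to 4. For per1a the values were 27.1, 37.7, 1.05 and 2.42 in il22ko and 47.02, 6.61, 4.84 and 4.46 in WT. For bmal1b they were 2.96, 2.75, 13.7 and 16.9 in il22ko and 4.39, 11.5, 11.8 and 12.5 in WT. In each of these 3 genes il22ko 1, il22ko 2 and WT 1 stood together, at one end of the range, and the other 5 libraries at the other end, so both genotypes were in both sets.

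The same 3 libraries held the 3 extreme values in all 10 genes: the 3 lowest in bmal1a, bmal1b, clocka, clockb and cry3b, and the 3 highest in per1a, per1b, per2, per3 and cry5. The step between them and the nearest of the other 5 libraries was 4.09-fold for per1a, 3.49-fold for cry3b, 2.62-fold for bmal1b and 2.23-fold for per1b. It was 1.29-fold for clockb and 1.17-fold for per2. In per3 the widest step lay elsewhere, between il22ko 3 at 64.2 CPM and the other 7 libraries at 101 or more. Levels of per3 were 238, 223, 64.2 and 101 CPM in il22ko and 213, 142, 116 and 125 in WT. Levels of per1b were 114, 127, 34.7 and 41.8 CPM in il22ko and 102, 45.8, 41.6 and 38.6 in WT. No test was made of these 3 libraries against the rest, since they were singled out by the values themselves. How many of all genes tested set the same 3 libraries apart was not counted, so the split is not shown to be particular to clock genes. Over genes at large, il22ko 1 and il22ko 2 also differed less from each other (chi-square per degree of freedom 14.4) than from il22ko 3 or il22ko 4 (54.1 to 101).

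In the other members, too, these 3 libraries stood at one end. Levels of bmal1a were 7.91, 7.01, 25.4 and 27.6 CPM in il22ko and 12.002, 25.4, 23.8 and 26.2 in WT, and those of clocka 8.62, 9.49, 20.8 and 30.7 in il22ko and 9.43, 18.8, 18.4 and 19.8 in WT. Levels of cry5 were 71.2, 75.98, 32.2 and 30.6 CPM in il22ko and 71.8, 34.5, 41.1 and 32.4 in WT. For per2 the levels were 159.9, 174, 115 and 124 CPM in il22ko and 188, 127, 137 and 126 in WT, and for clockb 27.1, 27.5, 35.4 and 39.6 in il22ko and 27.03, 41.8, 40.3 and 38.2 in WT. In all 10 genes the genotypes overlapped, where 34.3% of the 10710 genes tested had no overlap.

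The spread within the genotypes, as the pooled SD of log2 CPM, was larger for 8 of the 10 than for 97.7% to 99.9% of the genes tested in the first experiment, with 1.96 for per1a and 1.34 for cry3b against a median of 0.16. It was nearer the middle for clockb and per2, larger than 80.3% and 80.7% of genes. In the second experiment the highest were per1a and per1b, at 96.9% and 96.1%, and bmal1a, at 8.22%, varied less within groups than most genes. With that spread, no member was called between il22ko and WT in the first experiment. The estimates ran from -0.37 ± 0.51 (SE, adjusted p = 0.624) for bmal1a to 0.48 ± 0.53 (SE, adjusted p = 0.528) for per1b on the log2 scale. The estimate for cry3b was 0.24 ± 0.80 (SE, adjusted p = 0.846), with the sign changed in some alternatives, against -0.73 ± 0.09 (SE, adjusted p = 6.41e-06) between il22koCV and WTCV; the difference between the experiments was not tested. Intestinal epithelial transcripts, as the mean log2 CPM of 7 markers, were 7.63 and 7.65 in il22ko 1 and il22ko 2 and 7.71 in WT 1, against 7.35 to 7.52 in the other 5 libraries. Liver transcripts were 1.42, 1.19 and 0.21 in the same 3 libraries, inside the range of 0.08 to 3.29 of the other 5.

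**Figure D4:**
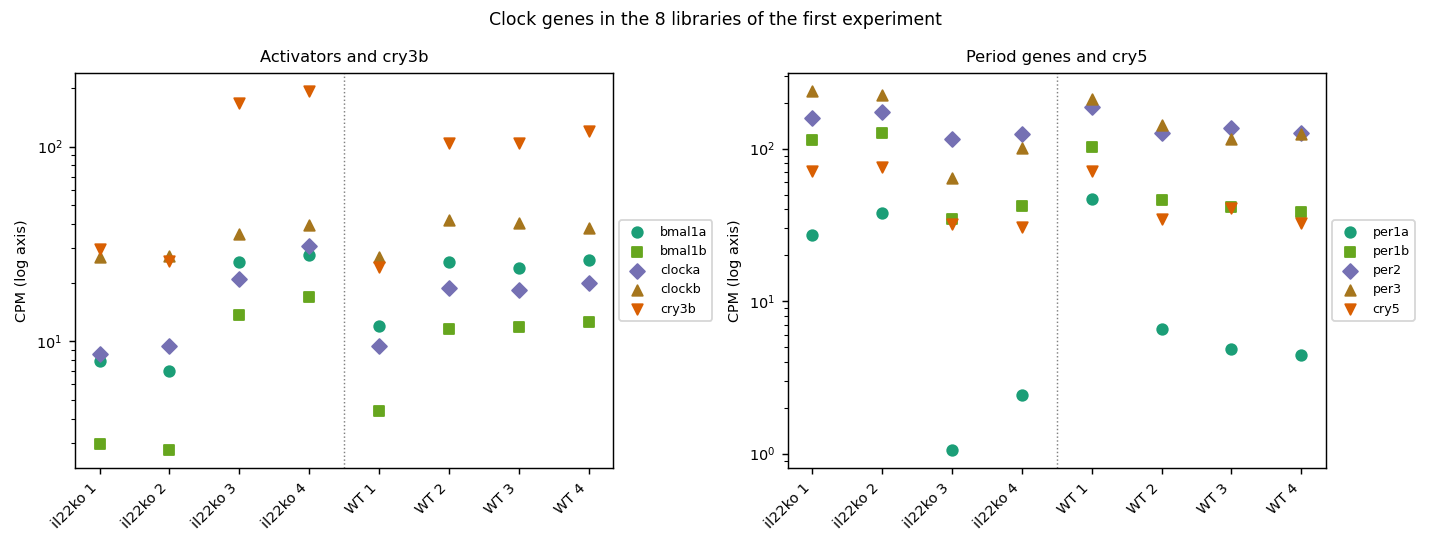
Each point is 1 of the 8 libraries of the first experiment, il22ko on the left and WT on the right of each panel, in CPM on log axes, for the activators and cry3b (left panel) and for the period genes and cry5 (right panel). In il22ko 1, il22ko 2 and WT 1 the genes of the left panel are low and those of the right panel high, per1a lying at 27.1 to 47.02 CPM in these 3 libraries and at 1.05 to 6.61 CPM in the other 5.

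Other genes of the clock were counted from 3 lists. Of REV-ERB, ROR, DEC and PAR bZIP genes, the second loop and its outputs, 18 were tested in the second experiment. In WTGF against WTCV the 7 called were lower (25.2% of all genes were called, 13.2% lower), and in il22koGF against il22koCV 3 were higher and 7 lower (27.2% of all genes called); the medians over the list were -0.41 and -0.54 on the log2 scale, against -0.00176 and 0.0119 over all genes. The REV-ERB gene nr1d1, a repressor of BMAL genes, averaged 4.90 CPM in il22koGF and 46.2 in il22koCV (log2 fold change -3.24 ± 0.41 SE, adjusted p = 6.72e-05), and 5.48 in WTGF and 25.2 in WTCV (-2.20 ± 0.40 SE, adjusted p = 0.00137). The WTCV libraries spread widely in nr1d1, at 36.9, 35.9, 20.6 and 7.38 CPM. WTCV 4, the lowest of them, was near the 5.05 to 6.19 CPM of WTGF. The bZIP gene nfil3-6 fell by 2.93 in il22koGF and by 2.75 in WTGF on the log2 scale, relative to conventional guts of the same genotype. The log2 fold change of tefa, a PAR bZIP activator, was -1.34 in il22-/- guts and -1.45 in wild type guts. Between il22koCV and WTCV, 1 of the 18 was higher and 5 lower, a share no larger than the 36.2% of all genes called there, among the lower ones nfil3-2 (-1.27 ± 0.12 SE, adjusted p = 1.68e-07), hlfa (-0.77 ± 0.08 SE, adjusted p = 3.81e-07) and rorcb (-1.09 ± 0.16 SE, adjusted p = 3.01e-05), an ROR gene.

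Of 14 other cryptochromes, clock kinases and partners tested, 4 were higher and 3 lower in il22koGF than in il22koCV (27.2% of all genes called), and 1 was higher and 5 lower in WTGF than in WTCV (25.2%). In il22koGF the cryptochromes cry1b (0.67 ± 0.09 SE, adjusted p = 5.44e-05), cry4 (0.57 ± 0.09 SE, adjusted p = 0.000146) and cry3a (0.48 ± 0.08 SE, adjusted p = 0.000393) were higher than in il22koCV. Between il22koCV and WTCV, 2 were higher and 6 lower (36.2% of all genes called), with cry1b (-0.43 ± 0.09 SE, adjusted p = 0.000714) lower and the casein kinase gene csnk1e (0.56 ± 0.12 SE, adjusted p = 0.00174) higher. Of 8 genes of a list of light-induced genes, 1 was higher and 4 lower in WTGF than in WTCV (25.2% of all genes called), tefa, lonrf1, cry-dash and cry1a being lower, and 1 was higher and 2 lower in il22koGF than in il22koCV (27.2%). In il22koCoH against il22koCV, 1 of the 14 and 2 of the 18 were called, beside 2.59% of all genes, and the 8 light-induced genes were not; the 2 were nfil3-6 (-1.98 ± 0.25 SE, adjusted p = 0.00065) and the REV-ERB gene nr1d2a (-1.83 ± 0.30 SE, adjusted p = 0.00546). In the first experiment, 3 of 13, 3 of 19 and 2 of 8 were called between il22ko and WT, each a smaller share than the 33.1% of all genes called there. One of the 2 was wee1, matched to the light-induced list by its row name alone. The genes tefa, cry1a and cry-dash are in 2 of the lists each.

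The genes whose log2 CPM followed each member most closely over the 20 libraries of the second experiment were listed by Pearson's r, as a description over libraries that share groups. Since they were picked for the highest r in that experiment, a high r there follows from the choice. For per1b the nearest were nr1d2b (r = 0.97), degs2 (0.96) and nr1d1 (0.95), and over the 8 libraries of the first experiment the same genes had r of 0.99, 0.60 and 0.97. Levels of nr1d1 in that experiment were 237, 247, 21.4 and 31.995 CPM in il22ko and 199, 18.7, 19.5 and 26.6 in WT, high in il22ko 1, il22ko 2 and WT 1 as per1b was. For bmal1b the nearest were cdc42bpb (0.91), pdk2b (0.88) and rorcb (0.88), with 0.82, -0.44 and 0.99 in the first experiment. Levels of rorcb there were 0.554, 0.680, 15.1 and 33.2 CPM in il22ko and 1.33, 12.6, 11.8 and 12.8 in WT, low in the same 3 libraries. For nr1d1 and rorcb, r over the 8 libraries thus rests largely on the step between these 3 libraries and the rest.

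For the other members, r of the nearest gene of the second experiment is given with its r in the first. The per1a pattern was nearest to sec23b, with r of 0.97 in the second experiment and 0.17 in the first, and clocka was nearest to sirt6, with 0.88 and 0.22. The per2 pattern was nearest to atp7a (0.94 and 0.09), per3 to ugt2b4p (0.89 and 0.13) and clockb to cdc40 (0.91 and 0.56). The values were 0.73 or more in both experiments for bmal1a with ubc (0.94 and 0.89), cry3b with cdc42bpb (0.94 and 0.73) and cry5 with slc27a6 (0.95 and 0.80). A further gene near cry5, crtac1a, had r of 0.94 in the second experiment and -0.84 in the first.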

How the data were processed

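RNA of pooled larval guts was sequenced as 100-base read pairs from stranded mRNA libraries, per the labels' protocols. The build danRer11 and FastQC 0.11.8 are the only upstream items named there; the sources used here name no aligner, no counting tool and no strand setting. The authors deposited raw counts and TPM per gene for each experiment, with TPM missing for bmal1b in the first. Row names were matched to current symbols through RefSeq's table for GCF_049306965.1 (GRCz12tu), from which names alone were taken, for 15776 of 16134 and 15222 of 15419 rows. The members and gene lists were chosen with earlier results of these data known.

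The count test was edgeR 4.0.16's robust quasi-likelihood F test under R 4.3.3, after TMM scaling and filterByExpr by group. Adjusted p-values are Benjamini-Hochberg values over all genes tested, called under 0.05. Each experiment had its own fit, with the 5 groups of the second in 1 model. The SE is the absolute log2 fold change over the square root of F. Each CPM value is a count per 1000000 counts of the TMM-scaled library. Marker levels are means of log2(CPM + 0.5). The 10 members are named always; of each list, up to 4 called genes of smallest p in a comparison. The fit was also run on simulated counts in which genes varied independently, so differences shared by many genes between libraries were not covered. Alternatives were RLE scaling, no filter, DESeq2 1.42.0, limma 3.58.1 on log2(TPM + 1) and log2(TPM + 0.1), a replicate block, each library left out, compared groups alone, the 3 libraries with the most muscle transcripts left out, a liver score, and, chosen after seeing the data, WTCV 4 and il22koCoH 4 left out. In those 3, WTCV 1, WTGF 2 and il22koCoH 2, 12 muscle markers summed to 1019, 681 and 341 CPM. The next highest library of the second experiment, WTGF 1, had 95.2 CPM. No 2 libraries of a group agreed within counting noise (chi-square per degree of freedom 14.4 to 122.9 over 42 pairs). Reads of duplicated copies may have been split or shared in the authors' counting.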

Additional observations from a re-analysis of the deposited data

Results flagged for a closer look

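In groups of 4 libraries, a sample is listed here when its gap to the nearest other library, as a share of the group's range, is past Dixon's 95% critical value. Over the 70 combinations of gene and group this held for 8, and chance gives about 1 in 20. The genes share libraries, so the 70 are not independent and the 8 cannot be weighed against that rate. WT 1 was far from the other 3 WT libraries in 6 genes: low in bmal1a (12.002 CPM, the nearest other at 23.8), bmal1b (4.39, nearest 11.5), clocka (9.43, nearest 18.4) and cry3b (23.9, nearest 104), and high in per1a (47.0, nearest 6.61) and per1b (102.1, nearest 45.8). In the second experiment, clocka was high in WTCV 4 (24.4 CPM, nearest 17.5) and per1a was high in il22koCV 4 (8.27 CPM, nearest 5.47).

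The fold change of germ-free over conventional guts differed between the genotypes, by the interaction term, in cry3b (0.80 on the log2 scale, more positive in il22-/- guts). It was called in all 26 alternatives. The same held for cry5 in the main fit (1.07, less negative in il22-/- guts), but that call was lost in 3 of 26 alternatives.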

How the results depend on the processing

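No call of a clock gene changed direction under any alternative; every change of sign listed here is of a difference that was not called, and the cause of each change was not tested. Of the values of single genes outside the leave-one-out fits, 696 kept their direction and their side of the threshold, 25 changed sign, 18 became called and 19 lost a call.

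For il22ko over WT, in log2 fold changes, per2 was 0.0036 with RLE scaling and 0.0036 in DESeq2. With limma on log2(TPM + 1), clocka was -0.086, per1a -0.043, per3 -0.12 and cry3b -0.11, and on log2(TPM + 0.1) they were -0.11, -0.31, -0.12 and -0.12. For il22koGF over WTGF, per1a and per2 were 0.0084 and 0.022 on log2(TPM + 1) and 0.015 and 0.023 on log2(TPM + 0.1), and per1a was 0.0036 for il22koCoH over WTCV on log2(TPM + 0.1). Without the 3 libraries with the most muscle transcripts (WTCV 1, WTGF 2, il22koCoH 2), per3 was 0.12 for WTGF over WTCV, and with the liver score bmal1a was 0.0018 for il22koCoH over il22koCV. Without WTCV 4 and the library labelled il22koCoH 4, clocka was 0.084 for il22koCV over WTCV and -0.0052 in the interaction, bmal1b was 0.021 for WTGF over WTCV and bmal1a 0.027 for il22koCoH over il22koCV.

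The members called between il22koCoH and il22koCV were 0 with no filter, on both TPM scales, with the block, with these groups alone, without the muscle libraries and with the liver score. Between il22koGF and WTGF they were 2 in DESeq2, on both TPM scales, with the liver score, and without WTCV 4 and il22koCoH 4. All genes called between il22koGF and WTGF stayed within 1.5 times of the main fit in these, where 26.8% were called. In the interaction the members called were 1 without the muscle libraries and with the liver score, and 4 without WTCV 4 and il22koCoH 4. All genes called between il22koCoH and il22koCV were 621 in DESeq2, 177 and 160 on log2(TPM + 1) and log2(TPM + 0.1), and 561 without the muscle libraries, against 292. In the interaction they were 351 in DESeq2, 29 on log2(TPM + 0.1), 82 with the 4 groups alone, 13 without the muscle libraries, 27 with the liver score and 1134 without WTCV 4 and il22koCoH 4, against 50. Between WTGF and WTCV they were 1270 with these groups alone and 1802 without the muscle libraries, against 2838, and between il22koCoH and WTCV 2465 with these groups alone, against 3733.

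With 1 library left out, the members called ranged from 1 to 2 between il22koGF and WTGF (2 without WTGF 3), from 0 to 1 between il22koCoH and il22koCV (0 without il22koCV 1, 2 or 3 or il22koCoH 1 or 3), and from 1 to 3 in the interaction. Between il22koGF and WTGF, all genes called ranged from 2550 to 2772, against 3020. All genes called ranged from 103 to 504 between il22koCoH and il22koCV (lowest without the library labelled il22koCoH 4, highest without il22koCoH 2, moved by over 1.5 times without any of the 8), from 1701 to 4058 between WTGF and WTCV (lowest without WTCV 3, moved by over 1.5 times without WTCV 2 also, highest without WTCV 4) and from 7 to 972 in the interaction (lowest without il22koCV 2, highest without WTCV 4, moved by over 1.5 times also without WTCV 1, 2 or 3, WTGF 2, il22koCV 1 or il22koGF 3 or 4). Log2 fold changes of il22ko over WT ranged from -0.36 to 0.29 for clocka, -0.12 to 0.14 for per2, -0.25 to 0.56 for cry3b, -0.62 to 1.68 for per1a, -0.20 to 0.33 for per3, -0.64 to 0.15 for bmal1b and -0.0071 to 0.54 for cry5. For WTGF over WTCV, per3 ranged from -0.11 to 0.061 and bmal1b from -0.12 to 0.021. For il22koCoH over WTCV, per1a ranged from -0.60 to 0.027 and per1b from -0.056 to 0.50. For il22koCV over WTCV, clocka ranged from -0.15 to 0.084, and in the interaction from -0.0052 to 0.22. For il22koGF over WTGF, bmal1b ranged from -0.086 to 0.079, per1a from -0.18 to 0.11 and per1b from -0.10 to 0.17. For il22koCoH over il22koCV, per2 ranged from -0.020 to 0.17 and bmal1a from -0.036 to 0.027.

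Same-numbered libraries did not deviate together in every pair of any 2 groups: the correlation of their deviations ran from -0.06 to 0.33 in the first experiment and from -0.44 to 0.42 in the second, and a library correlated best with its own number in 1 of 4 and in 9 of 40 same-numbered pairs, 3 of them between WTGF and il22koCoH (r of 0.14 to 0.33, with -0.03 in the fourth pair) and 2 between il22koCoH and WTCV (0.32 and 0.42), so the number was not taken as a pairing. With the number as a block, il22ko over WT was -0.065 for clocka, -0.26 for per1a, -0.082 for per3 and -0.021 for cry3b, and the members called were 7 between il22koCV and WTCV, 7 between WTGF and WTCV, 0 between il22koCoH and il22koCV and 3 in the interaction. All genes called with the block stayed within 1.5 times of the main fit in each of these comparisons. In the main fit 36.2%, 25.2%, 2.59% and 0.444% of all genes were called, in the same order.

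Counts per library were at least 18 for per1a and at least 89 for the other members, so counting error limits per1a most.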
